A study of Mus musculus with 11 samples.

Results

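The noncoding UCSC transcript models are the features that both deposited tables list as noncoding and name by an identifier of the UCSC gene track. They were chosen by that source prefix alone, without reference to any measured value. The Dcr table held 1684 of them among 48942 features. In the cMyc table there were 1023 among 39889, and all 1023 were also in the Dcr table. UCSC models are assembled from sequenced cDNAs and other transcript evidence, and those without a convincing open reading frame are classed as noncoding. Such models are a mixed class, since long intergenic RNAs, antisense transcripts, host transcripts of small RNAs and noncoding isoforms can all be among them. The files give them no gene name, position, length or sequence, and 0 of the 1684 identifiers were found in the name and sequence tables of GRCm38.p6 used here, so they are described by identifier. Whether they overlap one another or coding genes was not analysed here.

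RNA was sequenced from feeder-free mouse embryonic stem cells of strain 129S4/SvJae, to compare long noncoding and coding RNA between cells with and without Dicer. Dicer is the ribonuclease that cuts hairpin precursors into mature microRNAs, which repress mRNAs through Argonaute proteins, so cells without it lose most microRNAs. Dcr WT had 2 paired-end libraries, with no label saying that they came from separate cultures, and Dcr KO had 3 paired-end libraries, 1 from each of lines 1, 3 and 4. A second pair of cells, with 1 single-end library each, carried floxed cMyc alleles (cMyc flox) or lacked cMyc (cMyc KO). Myc is a transcription factor that acts widely on growth genes. RNA in all 7 libraries was poly(A)-selected, so transcripts without a poly(A) tail are under-represented, and libraries kept strand by the dUTP method.

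Depth ran from 101815723 reads (Dcr WT library 1) to 278006158 (Dcr KO line 3) in the Dcr table, and was 24660365 and 31633011 in the cMyc flox and cMyc KO libraries. The check of the labels gave Dicer1 at 20132 and 18792 normalised reads in Dcr WT and at 8553, 9793 and 7743 in Dcr KO. Myc had 446 reads in cMyc flox and 12 in cMyc KO, and in the Dcr table it fell by 3.44 on the log2 scale (limma adjusted p = 0.000289). All 10 stem cell markers examined had reads in every library. Their summed normalised counts overlapped between the Dcr groups, at 1257630 and 1067070 in Dcr WT and 1297400, 1178870 and 1098610 in Dcr KO. The sums were 59853 in cMyc flox and 73439 in cMyc KO. The summed normalised count of 10 fibroblast markers was 29371 and 41771 in Dcr WT and 6014, 3503 and 2136 in Dcr KO, with Postn listed at 0 in 4 of the 5 libraries and Lum in Dcr KO lines 1 and 4. For 8 primitive endoderm markers the sums were 7546 and 4031 against 2923, 3249 and 2744. In cMyc flox and cMyc KO the sums were 8902 and 12222 for the fibroblast markers, and 189 and 194 for the endoderm markers. The part of these marker differences in the results below was not tested.

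Most noncoding UCSC models were scarce. In the Dcr libraries 439 had no read at all, 1245 had at least 1 read and 821 had reads in all 5 libraries. The test required a normalised count of at least 1 in at least 2 libraries, which 1055 models met and 629 did not. Among those tested, the median normalised count over the 5 libraries was 40.3, with quartiles of 10.1 and 220.4. The median over all 42358 features tested was 54.1, and over 17140 coding features 2737. These are reads per feature and not per length, so they say how well a model was counted and not how strongly it was transcribed relative to another.

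A few models took most of the reads. The 3 with the highest counts held between 45.1% and 55.4% of all reads on noncoding UCSC models in every Dcr library. The 10 highest held 74.8% to 79.5%. Together the noncoding UCSC models accounted for 1.48% and 1.45% of reads in Dcr WT and for 1.31%, 1.30% and 1.21% in Dcr KO, so that the 3 lines lay below both wild-type libraries. The means were 1.46% ± 0.0244 (SD, n = 2) and 1.27% ± 0.0543 (SD, n = 3), and no test was run on them. Without the 10 highest models the shares were 0.373% and 0.345% in Dcr WT against 0.268%, 0.284% and 0.286% in Dcr KO, again without overlap. In bulk RNA a smaller share of cells with a transcript and less of it per cell cannot be told apart.

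**Figure D1:**
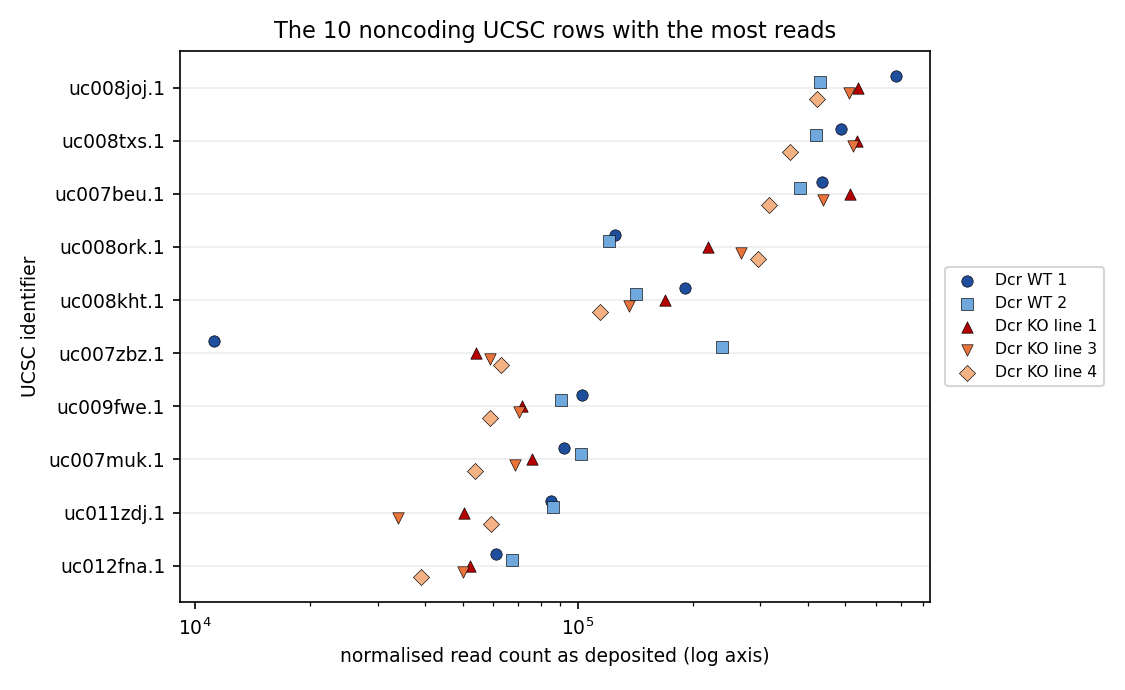
Normalised read count on a log axis (x) of the 10 noncoding UCSC rows with the most reads (y), with 1 point per Dcr library. The 3 uppermost rows mix wild-type and knockout libraries, uc008ork.1 has its 3 knockout points above both wild-type points, and the wild-type points of uc007zbz.1 lie at 11211 and 238296.

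The best-counted models did not share a direction. The model with the most reads, uc008joj.1, stood at 678514 and 428851 in Dcr WT and at 541176, 512663 and 422401 in the knockout lines (1, 3 and 4, here and below). Those groups overlapped, and its log2 fold change was −0.14 ± 0.21 (SE; limma adjusted p = 0.640). The next, uc008txs.1 (0.04) and uc007beu.1 (0.02), did not pass either, with adjusted p of 0.894 and 0.941 in limma. The fifth, uc008kht.1, had a log2 fold change of −0.25 and an adjusted p of 0.349. Of the 5 best-counted models, 1 was called. This was uc008ork.1, which stood at 125464 and 121002 in Dcr WT and at 219196, 266305 and 296156 in Dcr KO. All 3 lines lay above both wild-type libraries, and the model rose 2.10-fold (log2 fold change 1.07 ± 0.16 SE, limma adjusted p = 0.00128). It was called without each library in turn.

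The next 5 models by count, looked at after their values were seen, were mostly lower in Dcr KO. The model uc011zdj.1 stood at 85248 and 86280 in Dcr WT and at 50302, 33877 and 59320 in Dcr KO. Its log2 fold change was −0.88 ± 0.22 (SE) at a limma adjusted p of 0.0134, and the call was lost when line 1 (0.0602) or line 3 (0.0506) was left out. For uc009fwe.1 the counts were 102796 and 90249 against 71640, 70225 and 58896 (log2 fold change −0.53, adjusted p = 0.0235), and for uc007muk.1 they were 92091 and 101837 against 76098, 68369 and 54015 (−0.56, adjusted p = 0.0307). In both, every line lay below both wild-type libraries. Both calls hung on single knockout lines. That of uc009fwe.1 was lost without lines 1, 3 or 4 (0.0590, 0.0878 and 0.0741). That of uc007muk.1 was lost without lines 3 or 4 (0.102 and 0.0850). Without Dcr WT library 1 uc009fwe.1 stood at −0.44, and without library 2 uc007muk.1 stood at −0.49. The model uc012fna.1 had counts of 61080 and 67213 against 52252, 50133 and 38917 and just missed the threshold (−0.46, adjusted p = 0.0574). It was called with total count scaling (−0.54, 0.0122) and with scaling on coding features (−0.41, 0.0391). Without Dcr WT library 1 its log2 fold change was −0.52.

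The remaining one of these, uc007zbz.1, set the 2 wild-type libraries apart. It stood at 11211 in Dcr WT library 1 and at 238296 in library 2, a 21.3-fold difference, while the knockout lines were close together at 54359, 58903 and 62898. All 3 lines therefore lay between the wild-type libraries. Its log2 fold change was 0.18 ± 0.94 (SE, limma adjusted p = 0.899), but −2.02 without library 1 and 2.39 without library 2. It took 8.73% of all reads on noncoding UCSC models in library 2 and 0.370% in library 1, and without it the share of reads on the class was 1.48% and 1.32% in Dcr WT and 1.28%, 1.27% and 1.18% in Dcr KO. In the cMyc libraries its normalised counts were 10515 and 10839. Of 492 noncoding UCSC models with a mean count above 50, 7 (1.42%) differed over 4-fold between the 2 wild-type libraries. Of 14289 coding features above that count, 134 (0.938%) did. Levels above that count differ between the classes, so these shares are not set against each other. Among all tested models, 29.2% differed over 2-fold between the wild-type libraries, against 30.1% of coding features of equal level (binned as below). Another of the 7, uc009tnw.1, stood at 34863 and 8594 in Dcr WT and at 3838, 3433 and 2501 in Dcr KO. It was called lower (log2 fold change −2.43 ± 0.46 SE, limma adjusted p = 0.00432), with a value of −1.42 without library 1 and −3.44 without library 2.

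More noncoding UCSC models fell than rose when Dicer was absent. Of the 1055 tested, 206 (19.5%) were lower and 85 (8.06%) higher in Dcr KO at a limma adjusted p under 0.05, so that 70.8% of the calls were lower. Over all features tested, 14.8% were called lower and 16.9% higher. The median log2 fold change of the tested models was −0.34, with quartiles of −1.21 and 0.46, against 0.08 over all features. Each knockout line gave a like median against the wild-type mean, at −0.34, −0.29 and −0.34 for lines 1, 3 and 4. The coding features were at 0, −0.03 and −0.12. All 3 lines were set against the same wild-type mean, so these medians are not independent of one another. Against the knockout mean, Dcr WT libraries 1 and 2 stood at 0.30 and 0.43 for the models, and at 0.09 and 0.03 for coding features. The fibroblast marker sums also lay lower in all 3 lines, as given above. Of the 206 that fell, 89 (43.2%) did so by at least 4-fold, against 34.2% of the lower calls over all features. That share was 23.3% for coding features, and from 27.0% (RefSeq) to 48.7% (VEGA) for the other noncoding sources. It was not compared at equal level. Of the 85 that rose, 30 (35.3%) did so by at least 4-fold, against 43.7% of the higher calls over all features. The median log2 fold change was −1.87 among those that fell and 1.57 among those that rose.

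The number of calls was lower with fewer knockout lines, while the lower direction stayed in the majority. Without Dcr KO line 1, 137 were lower and 50 higher. Without line 3 the counts were 128 and 44, and without line 4 they were 143 and 52. Of the 291 called models, 107, 121 and 101 were not called without lines 1, 3 and 4 in turn. Without a wild-type library, a single library remained in Dcr WT. The p-values of such fits took no spread from wild type, so only effect sizes are read from them. None of the 291 changed sign where it could be fitted. The filter was not passed by 6 without Dcr WT library 1, and by 6 without library 2. How many calls over all features were lost in the alternative fits is not given here, so no trait of the models is drawn from these counts. Without the trend of spread on level, an alternative chosen after the values were seen, 97 of the 291 were not called. Among them were uc009eta.1, uc009tnw.1, uc009fwe.1, uc007muk.1, uc011zdj.1, uc007zzy.1 and uc009qrf.1, described here, at adjusted p of 0.0891, 0.0666, 0.143, 0.161, 0.111, 0.133 and 0.104.

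**Figure D2:**
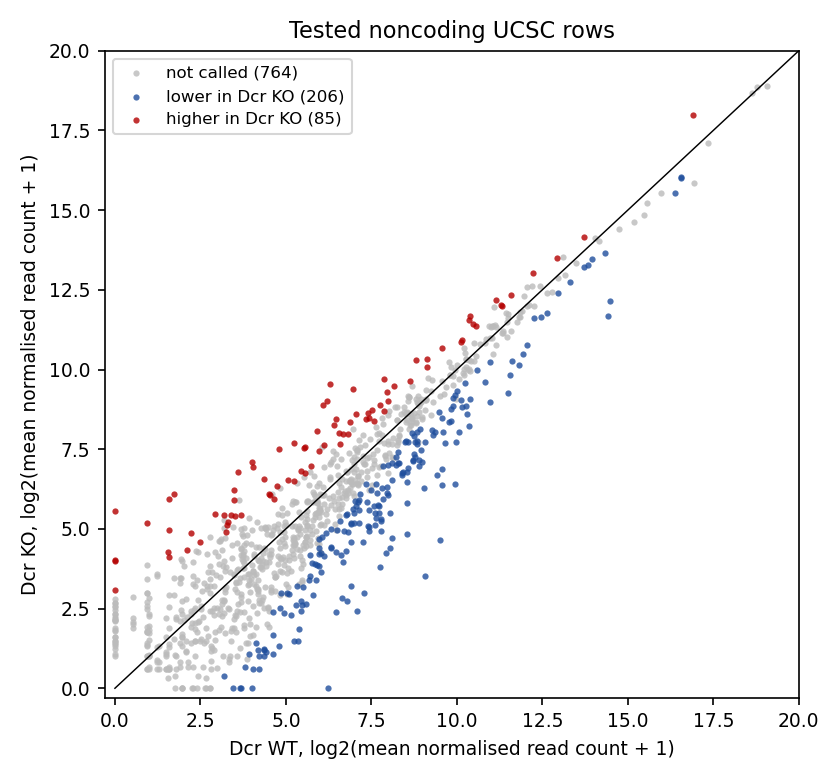
Mean normalised read count in Dcr KO (y) against Dcr WT (x), both as log2(mean + 1), for the 1055 tested noncoding UCSC rows. The diagonal marks equal levels; 206 rows called lower lie below it and 85 called higher lie above it.

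Among called models counted above the median of all features, the largest decreases took transcripts of moderate level nearly to 0. The count was a mean over all Dcr libraries, so these models met that level through their wild-type counts. The model uc007uiz.1 stood at 559 and 511 in Dcr WT and at 17.7, 9.93 and 3.83 in Dcr KO. Its groups lay far apart, and its log2 fold change was −5.75 ± 0.56 (SE; limma adjusted p = 0.000141), which is a 53.8-fold decrease on the log2(value + 1) scale. The model uc007qnl.1 stood at 632 and 822 in Dcr WT and at 35.5, 14.5 and 22.2 in Dcr KO, and fell 30.6-fold (log2 fold change −4.93 ± 0.41 SE, adjusted p = 6.6e-05). Every line was below both wild-type libraries here too, and the value was between −5.25 and −4.63 whichever library was left out.

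The other large decreases rested on lower counts. The model uc008oht.1 had 143 and 125 in Dcr WT and 10.6, 1.53 and 0.765 in Dcr KO (log2 fold change −5.17 ± 0.82 SE, adjusted p = 0.00167). The last of these counts is a single read, and without line 1 the value was −5.99. The model uc007qms.1 had 205 and 104 in Dcr WT and 7.10, 0.764 and 13.01 in Dcr KO (log2 fold change −4.65 ± 0.84 SE, adjusted p = 0.00335), or −3.79 without line 3 and −5.28 without line 4. For uc009eux.1, with 245 and 241 against 39.0, 4.58 and 9.95, the log2 fold change was −4.18 ± 0.72 (adjusted p = 0.00264), or −4.97 without line 1 and −3.54 without line 3. In these 3 models the knockout lines differed among themselves by a larger factor than the wild-type libraries did. Each was called in every alternative that kept both wild-type libraries. With a pseudocount of 10 the values were −3.39 for uc008oht.1, −3.28 for uc007qms.1, −3.38 for uc009eux.1 and −4.79 for uc007uiz.1.

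A large decrease also occurred at a high level. Of the 24 models called lower with a mean count above 1000, uc008ljw.1, named after its values were seen, stood at 19673 and 26097 in Dcr WT and at 4123, 4116 and 5357 in Dcr KO. It fell 5.04-fold (log2 fold change −2.33 ± 0.18 SE, limma adjusted p = 5.0e-05), and was called in every alternative fit that kept both wild-type libraries. In the cMyc libraries it had normalised counts of 1509 in cMyc flox and 854 in cMyc KO.

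The largest increases among called models above the same median level had low wild-type counts, as ranking by fold change favours. That level was a mean over all 5 libraries. The wild-type means of uc009eta.1, uc009byu.1, uc008yig.1 and uc008toj.1 alone (15.5, 11.1, 15.1 and 26.9) lay below the median of 54.1. The model uc008dlt.1 stood at 68.4 and 87.6 in Dcr WT and at 639.7, 896 and 719 in Dcr KO, and rose 9.50-fold (log2 fold change 3.25 ± 0.25 SE, limma adjusted p = 4.8e-05). Its groups were wide apart and the value was between 3.07 and 3.42 in every alternative. The models uc009byu.1 and uc008yig.1 had a like profile, with line 4 below lines 1 and 3. For uc009byu.1 the counts were 14.1 and 8.22 against 131, 136 and 62.0 (3.15 ± 0.50 SE, adjusted p = 0.00163), and for uc008yig.1 they were 20.1 and 10.04 against 152, 178 and 81.9 (3.10 ± 0.48 SE, adjusted p = 0.00147). With a pseudocount of 10 their log2 fold changes were 2.45 and 2.52.

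Wild-type spread limited the remaining increases. The model uc009eta.1 had the largest log2 fold change of the called increases above that level, 3.95 ± 0.95 (SE; limma adjusted p = 0.0124), with 30.2 and 0.913 in Dcr WT against 92.3, 117 and 153 in Dcr KO. The second wild-type value is a single read, and the log2 fold change was 5.96 without library 1 and 1.93 without library 2. It was not called without line 1 (adjusted p = 0.0672), line 3 (0.0504) or line 4 (0.0767), nor by DESeq2 (0.0720). The model uc008toj.1 had 10.1 and 43.8 against 143, 188 and 214 (3.02 ± 0.55 SE, adjusted p = 0.00336), with 2.01 without library 1 and 4.02 without library 2.

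**Figure D3:**
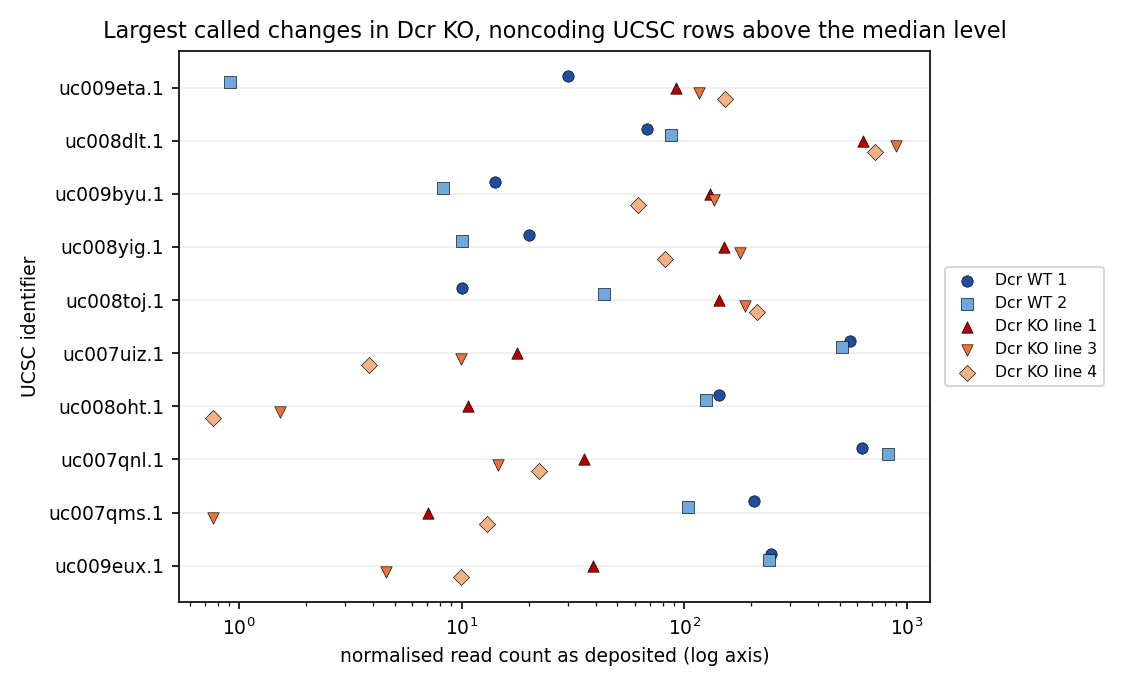
Normalised read count on a log axis (x) of noncoding UCSC rows (y), namely the 5 with the largest called increases and the 5 with the largest called decreases among those with a mean count above the median of all features tested, with 1 point per Dcr library. In each row all knockout points lie on 1 side of both wild-type points; the wild-type points of uc009eta.1, at 30.2 and 0.913, are the furthest apart.

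The excess of decreases over increases was also present in coding features of equal level. All 17140 coding features together had 22.7% lower and 20.5% higher calls, with 52.5% of calls lower. When coding features were binned by mean log2(value + 1) in steps of 1 and weighted by the number of noncoding UCSC models per bin, 23.7% were lower and 12.4% higher, with 65.6% of calls lower. The noncoding UCSC models had 19.5% and 8.06%. Both shares lay below those of coding features of equal level. The median log2 fold change was −0.34 for the models. For coding features the bin medians, averaged with the same weights, gave −0.49, so coding features with as few reads also lay below 0. These are unlike measures, so the gap between them is not read here. No test of these differences was made, and bins of 0.5 gave 23.6% and 12.5%.

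The share of calls depended on the level in both classes. Among features with a mean log2(value + 1) of 0 to 3, 22 of 265 noncoding UCSC models (8.30%) were lower and 4 (1.51%) higher, against 10.02% and 4.01% of 1447 coding features. From 3 to 6 the shares were 17.8% lower and 8.06% higher of 360 models, against 24.7% and 10.8% of 1867 coding features. From 6 to 9 they were 29.9% and 11.6% of 284 models, against 35.0% and 17.4% of 2387. Above 9 they were 24.0% and 13.01% of 146 models, against 21.4% and 24.8% of 11439. This top band does not hold like levels in both classes. From 9 to 10 it held 39 models and 1001 coding features, and from 13 to 14 it held 11 and 2210. Coding features were 32.0% lower and 22.5% higher from 9 to 10, but 15.9% and 26.8% from 13 to 14. The balance of the classes is therefore not compared in this band. The residual spread between replicates (median SD on the log2 scale) was 1.047 for the models against 0.98 for coding features from 0 to 3, 0.57 against 0.60 from 3 to 6, 0.28 against 0.32 from 6 to 9, and 0.22 against 0.16 above 9. It was thus larger for the models in the lowest and the top band and smaller in the other two. Its part in the shares was not tested.

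**Figure D4:**
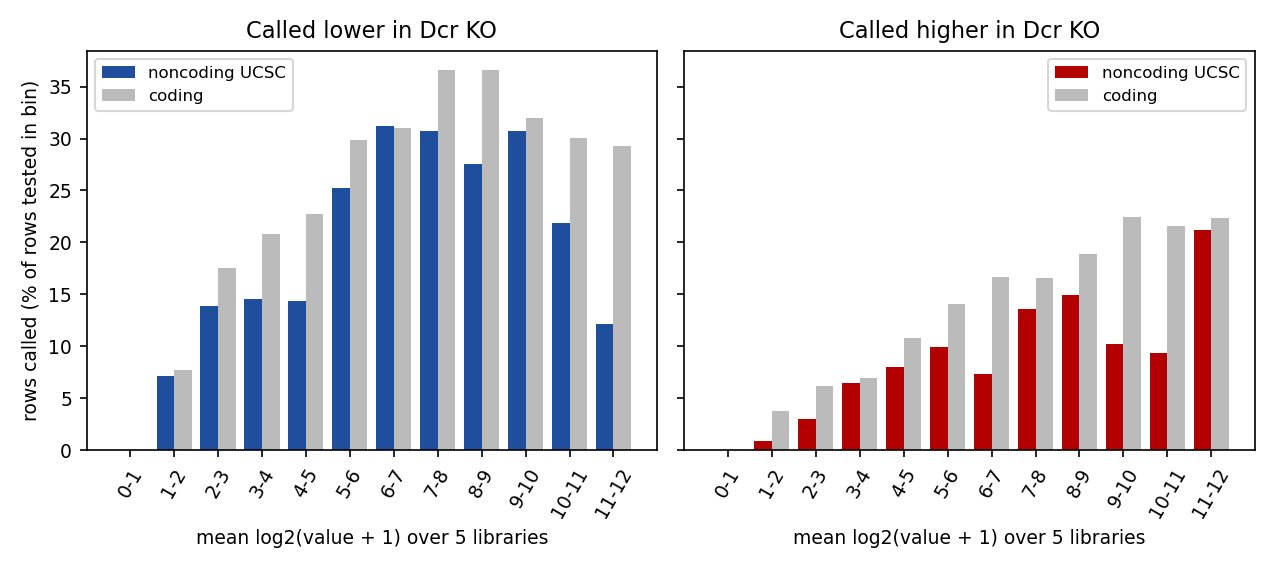
Share of tested rows called lower (left) and higher (right) in Dcr KO, in percent (y), by mean log2(value + 1) over the 5 Dcr libraries (x), for noncoding UCSC rows (coloured) and coding rows (grey); bins with at least 20 noncoding UCSC rows are shown. The noncoding UCSC bar is below the coding bar in 10 of 12 bins for lower calls and in 11 of 12 for higher calls; in the lowest bin both classes have 0 calls.

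Other noncoding sources gave differing balances of direction. Of 1184 GenBank noncoding features, 104 (8.78%) were lower and 124 (10.5%) higher, and of 723 from MGI 73 (10.1%) and 62 (8.58%). The catalogued lincRNAs, with 172 of 829 lower (20.7%) and 83 higher (10.01%), leaned lower, as did 621 noncoding RefSeq features, with 111 lower (17.9%) and 66 higher (10.6%), and 517 from VEGA, with 76 (14.7%) and 47 (9.09%). The median log2 fold change was −0.45 for the lincRNAs, −0.36 for RefSeq, −0.20 for VEGA, −0.13 for MGI and 0.01 for GenBank features, beside −0.34 for the noncoding UCSC models. These differences between sources were not tested.

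Loss of cMyc was compared in 1 library per group, so there is no test, and ratios carry an exact binomial 95% interval that covers counting error only. Of the 1023 noncoding UCSC models in that table, 919 had a read and 350 had at least 20 reads in the 2 libraries together. Of these 350, 31 (8.86%) were at a ratio of cMyc KO to cMyc flox of at most 0.5, and 4 (1.14%) at a ratio of at least 2. Over all 17631 features with as many reads, 2.4% were at most 0.5 and 1.75% at least 2. The median ratio was 0.860 for the models, 1.048 over all features and 1.08 for coding features. The interval excluded 1 for 25 of the 31 lower models and for 1 of the 4 higher. Among coding features it did so for 77 of 100 lower and 174 of 234 higher. In both classes these rows were picked by a ratio from the same counts.

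Coding features with equally few reads did not share this balance. With 20 to 100 reads, 24 of 191 noncoding UCSC models (12.6%) were at most 0.5 and 4 (2.09%) at least 2, against 3.11% and 8.98% of 1960 coding features. With 100 to 1000 reads, 7 of 111 models (6.31%) were at most 0.5 and 0 at least 2, against 0.528% and 0.999% of 5303 coding features. Of 48 models with 1000 reads or more, 0 were past 2-fold, and their median ratio was 1.10 against 1.09 for coding features. Among other classes with at least 20 reads, the share at most 0.5 was 16.1% for GenBank, 7.88% for MGI, 8.16% for VEGA and 3.43% for RefSeq noncoding features. It was 11.2% for catalogued lincRNAs, 12.4% for unannotated loci and 1.56% for pseudogenes. Ribosomal RNA took 28.1% of the reads of the cMyc flox library and 29.96% of the cMyc KO library, and the part of this difference in the ratios was not tested. With 1 library per group, a difference between libraries and one between genotypes cannot be told apart.

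**Figure D5:**
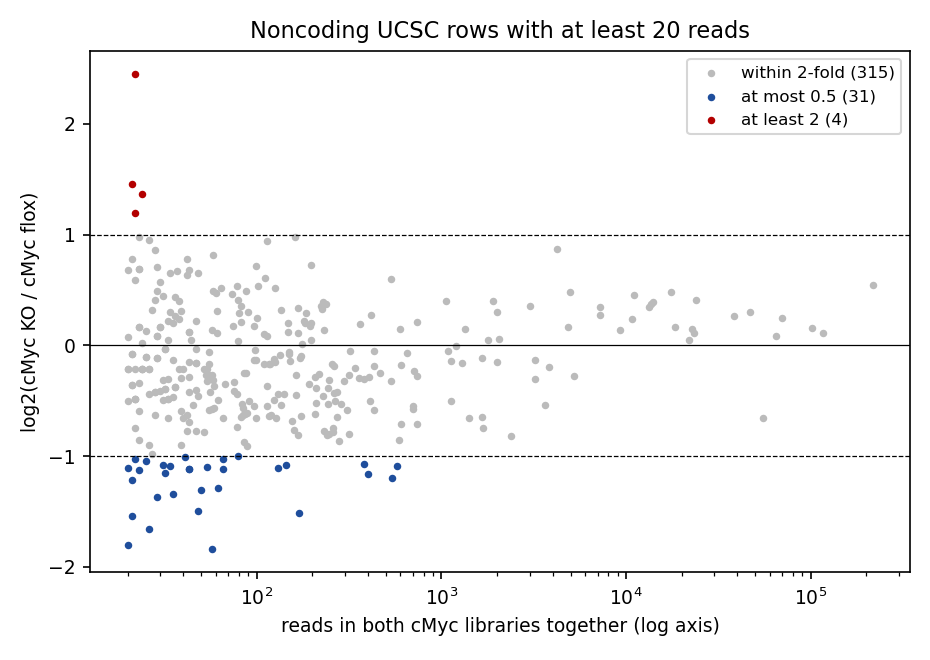
Ratio of cMyc KO to cMyc flox on the log2 scale (y) against the reads of both libraries together on a log axis (x), 1 point per noncoding UCSC row with at least 20 reads; dashed lines mark 2-fold. The 31 rows at a ratio of at most 0.5 all have fewer than 1000 reads, and the 4 rows at a ratio of at least 2 have fewer than 100.

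Of 159 models with at least 100 reads, the lowest ratio was that of uc007dva.1, with 120 reads in cMyc flox and 49 in cMyc KO (ratio 0.351, interval 0.247 to 0.493). The model uc008ypl.1 had 358 and 182 reads (0.437, interval 0.364 to 0.524) and uc007gjn.1 262 and 136 (0.446, interval 0.360 to 0.551). None of the 3 was called in Dcr KO, where the log2 fold changes were 0.18, 0.15 and −0.51 (limma adjusted p = 0.646, 0.565 and 0.175). Without Dcr WT library 1, uc007gjn.1 stood at −0.94. The highest ratios were 1.97 for uc007zzy.1, with 49 and 112 reads (interval 1.39 to 2.81), 1.92 for uc008fqc.1, with 35 and 78 (1.27 to 2.94), and 1.83 for uc009hev.1, with 1346 and 2868 (1.72 to 1.96). All 3 were under 2-fold.

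In Dcr KO, uc007zzy.1 was called higher, at 3024 and 2095 in Dcr WT against 4593, 3870 and 3685 (log2 fold change 0.68, limma adjusted p = 0.0253). It was not called without lines 1, 3 or 4 (0.108, 0.0795 and 0.0601), and stood at 0.41 without Dcr WT library 2. The other 2 were not called, with uc008fqc.1 at −0.65 (adjusted p = 0.492) and uc009hev.1 at −0.46 (0.236). Both had wild-type libraries far apart, at 16.1 and 86.7 for uc008fqc.1 and at 49756 and 24118 for uc009hev.1. The log2 fold change of uc008fqc.1 was −1.83 without library 1, and that of uc009hev.1 was −0.98 without library 2.

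The decreases in the 2 comparisons, which share no library, met in 10 models. Of 349 noncoding UCSC models measured in both, 117 were called lower in Dcr KO and 31 were at most 0.5 in cMyc KO, and 10 were both. These 10 are 8.55% of the 117 and 32.3% of the 31. Among all 349, 8.88% were at most 0.5 in cMyc KO and 33.5% were called lower in Dcr KO, so each share lay near that of the whole class. For coding features the overlap was 15 features of 3391 called lower (0.442%), beside 0.729% of all 13587. In the other direction, 33 were called higher in Dcr KO and 4 were at least 2 in cMyc KO, with 0 in common, and 3 of the 33 were at most 0.5 in cMyc KO.

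The model with the largest Dcr decrease among the 10, uc008awt.1, stood at 1024 and 577 in Dcr WT and at 193, 255 and 178 in Dcr KO (log2 fold change −1.90 ± 0.29 SE, limma adjusted p = 0.00152). Its cMyc libraries held 35 and 19 reads (ratio 0.467, interval 0.252 to 0.839). The model uc009nqy.1 stood at 225 and 267 against 84.3, 58.8 and 61.2 (−1.85 ± 0.31 SE, adjusted p = 0.00237), with 20 and 11 reads in the cMyc libraries. The interval of its ratio of 0.473 reached from 0.205 to 1.04, so the counts do not set it apart from 1. The third, uc009qrf.1, stood at 111 and 69.4 against 52.3, 21.4 and 16.8 (−1.68 ± 0.54 SE, adjusted p = 0.0414). This model was not called without line 3 (0.127) or line 4 (0.130), and its value was −1.34 without Dcr WT library 1. It had 14 and 7 reads in the cMyc libraries, and its interval of 0.147 to 1.14 also held 1. The best-counted called model, uc008ork.1, went in opposite directions, 2.10-fold higher in Dcr KO and at a ratio of 0.634 (interval 0.623 to 0.645) in cMyc KO.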

How the data were processed

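Per the submitters' processing notes, TopHat, Bowtie, DESeq and the build mm9 were used. Gene models, counting tool and use of strand were not given in the sources used here. Antisense, overlapping and repeated models are therefore uncertain. The authors deposited a normalised signal; from its values, each library's reads were divided by a factor of that library. Whole reads were recovered for 100% of values in each Dcr column (within 0.01 read) and 99.9975% in each cMyc column, where rounding to 2 decimals was allowed for. Value columns tied to no sample numbered 0.

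Dcr KO (n = 3) was compared with Dcr WT (n = 2) by moderated linear models (limma 3.58.1 in R 4.3.3, trend on) of log2(value + 1). Features needed a value of 1 or more in 2 or more libraries, and Benjamini-Hochberg adjustment ran over all features tested. Fold changes are on that scale, which understates the change of low models. For the wild-type libraries the spread behind the p-values may be technical. Fits were tested on simulated counts with the same dispersion for every feature and changes only in better-counted features. That setting does not cover scarce or variable models. Alternatives included edgeR 4.0.16 and DESeq2 1.42.0 on recovered reads. Reads are not independent molecules, so intervals cover counting error only. The models and lists were chosen with earlier results of these data known, and the level and read bands after values were seen. Named models were the 5 largest called changes per direction above the median level with groups apart and the 5 with most reads. Also named were the 3 highest and lowest cMyc ratios with at least 100 reads, and up to 3 per direction past both thresholds. Past both were 10 lower models, of which 3 are named, and 0 higher. The chromatin libraries were not analysed here.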

Additional observations from a re-analysis of the deposited data

How the results depend on the processing

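The lower direction stayed in the majority of calls in every fit that kept both wild-type libraries. As reported, 65.6% of the calls on coding features of equal level were lower too. That coding share is not given here for the alternative fits, so no trait of the models is drawn from this majority. Leaving out each library in turn gave 44 to 98 higher and 128 to 177 lower noncoding UCSC models and a median log2 fold change of −0.42 to −0.31. The upper ends of both count ranges came from fits with a single wild-type library. Their p-values took no spread from wild type, so nothing is drawn from those counts. Leaving out each knockout line gave 44 to 52 higher and 128 to 143 lower. The median log2 fold change was −0.22 with a pseudocount of 10, −0.30 without a filter and −0.41 with total count scaling. It was −0.27 with upper quartile scaling, −0.30 with scaling on coding features and −0.38 with DESeq2. Total count scaling also moved the median of all features, from 0.08 to −0.00, and the median of the models relative to it was −0.41, against −0.42 as reported. The models numbered 79 higher and 213 lower in edgeR, 88 and 223 in DESeq2, and 60 and 162 in limma without trend, an alternative chosen after seeing the data. The value of uc007zbz.1 reversed, from 0.18 to −2.02, when Dcr WT library 1 was left out, and was 2.39 when library 2 was. In cMyc KO, 17 of 458 models were higher and 51 lower with at least 10 reads. With at least 100 reads the counts were 0 and 7 of 159, and at 1.5-fold 27 and 82 of 350. Scaling on coding totals or on the coding median ratio gave 4 and 35 of 350. Shares over all features at these settings are not given here. Low counts limit the precision of the cMyc ratios, with 191 of the 350 models under 100 reads. No paired analysis was possible because no label pairs a Dcr KO line with a Dcr WT library.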
